A study of Mus musculus with 4 samples.

Results

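The genes described here encode the proteasome, the protease that degrades ubiquitin-tagged proteins in the cell. They are all 49 genes of the 21889 listed whose symbol begins with Psm, a letter from a to g and a digit. The samples are 4 lines of acute myeloid leukaemia cells from mice of the inbred strain BXH-2, each sequenced as 1 RNA library. B117H and B140H are highly resistant to cytarabine (Ara-C), a nucleoside analogue that stops DNA synthesis. Their parents are the sensitive lines B117P and B140P, and a parent with its derivative is called a lineage here. The labels give an IC50, the Ara-C concentration that inhibits by 50%, of about 160 µg/ml for B117H and 150 ng/ml for B117P. For B140H and B140P they give about 60 µg/ml and 110 ng/ml. All lines were passaged without the drug. The resistance of each lineage is represented by a single derived line, so no value within a lineage has a replicate error.

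The core particle of the proteasome is a barrel of alpha rings, which form its gate, and beta rings, which hold the cutting sites. The regulatory particle binds ubiquitin chains, removes them and unfolds the substrate with a ring of ATPases. In blood cells and after interferon signalling, the catalytic subunits encoded by Psmb5, Psmb6 and Psmb7 are replaced during assembly by those of Psmb8, Psmb9 and Psmb10, which gives the immunoproteasome and changes the peptides made for MHC class I presentation.

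Levels are FPKM, fragment counts scaled to transcript length and to the size of the library, as the authors deposited them. Of the 49 genes, 47 had a mean of 1 FPKM or more over the libraries and were compared, among 10066 such expressed genes of all kinds. Ratios are log2 of (FPKM + 1) in the resistant line over the same in its parental line. A gene is said to have risen when that ratio was at least 25% above parity, or to have fallen when it was at least 20% below it, which is the same factor, called the 25% mark. A 2-fold mark is given beside it. The library depth, estimated from the spacing of low values, was between 19080000 and 24480000 fragments. An expressed proteasome gene then had between 127 and 14139 estimated fragments per library. In lineage B117 all 7 listed myeloid markers were at 1 FPKM or more. In lineage B140 that held for 4 of 7 in B140H and 5 of 7 in B140P. There, Kit, the stem cell factor receptor, was listed at 0 in both lines, and Mpo, myeloperoxidase, was at 0.913 FPKM in B140H and 10.4 FPKM in B140P. Cd79a, a B cell receptor chain, was at 16.1 FPKM in B140H and 6.63 FPKM in B140P, so the B140 lines lacked some myeloid markers and carried a B cell marker. T cell markers were listed at 0 in every library.

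All lines expressed the proteasome at high levels. The median over the 47 genes was 109 FPKM in B117H, 111 in B117P, 116.6 in B140H and 95.9 in B140P, against 12.5, 12.9, 13.9 and 12.8 FPKM for all expressed genes in the same order. The 14 constitutive core particle genes had medians of 211, 205, 218 and 173 FPKM in that order of lines. The 17 regulatory particle genes had medians of 103, 91.0, 103 and 86.5 FPKM. The coefficient of variation over the core particle genes was 26.8% in B117H, 22.6% in B117P, 30.5% in B140H and 24.3% in B140P, and over the regulatory particle genes it was 28.0%, 30.7%, 29.6% and 24.5% in the same order. The 7 assembly chaperone genes, whose products act before the finished particle, had lower medians of 24.6, 30.8, 44.9 and 28.7 FPKM.

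**Figure D1:**
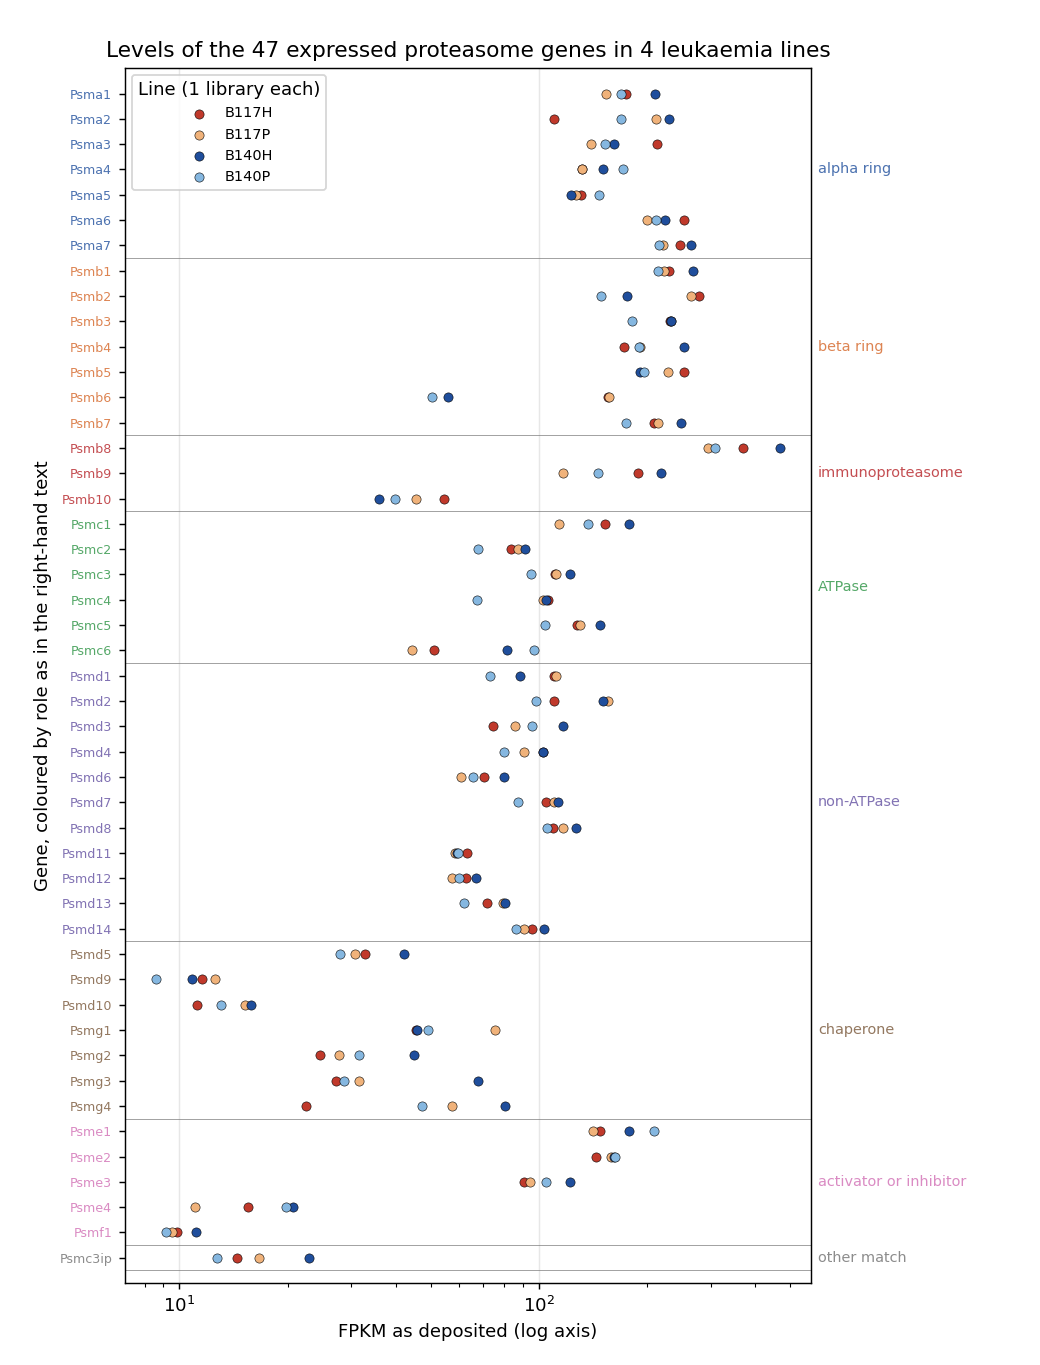
FPKM of the 47 expressed proteasome genes on a log axis, 1 point per line, with genes grouped by role down the page. Core particle genes mostly lie above 100 FPKM, the assembly chaperones lie lower, and Psmb6 is near 50 FPKM in both B140 lines against about 155 FPKM in both B117 lines.

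The first question is whether the proteasome genes moved with resistance in lineage B117. As a class they did not, with a median log2 ratio of -0.00 against -0.03 for all expressed genes. In B117H, 5 of 47 genes (10.6%) rose, where 13.8% of all expressed genes did, and 5 of 47 fell, where 20.4% of all expressed genes did. Past 2-fold, 0 rose (1.41% of all expressed genes) and 1 fell (3.21% of all expressed genes). The genes that rose were Psma3, Psma6, Psmb9, Psmc1 and Psme4, and those that fell were Psma2, Psmd2, Psmd10, Psmg1 and Psmg4. The remaining 37 passed in neither direction.

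In lineage B140 the proteasome genes were more often higher in the resistant line. Their median log2 ratio was 0.30, against 0.11 for all expressed genes and 0.21 for the 3811 expressed genes of a mean of 20 FPKM or more. In B140H, 20 of 47 genes (42.6%) rose, against 25.8% of all expressed genes, and 0 fell, against 12.1%. Past 2-fold, 1 rose (2.31% of all expressed genes) and 0 fell (1.63%). The median expressed gene was itself higher by 0.11 in B140H. After the libraries were centred on the median expressed gene, 12 genes rose (25.5%, against 16.5% of all expressed genes) and 3 fell (6.38%, against 17.4%). Among genes of a mean of 20 FPKM or more, 45.2% of the 42 proteasome genes rose, against 34.5% of all.

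**Figure D2:**
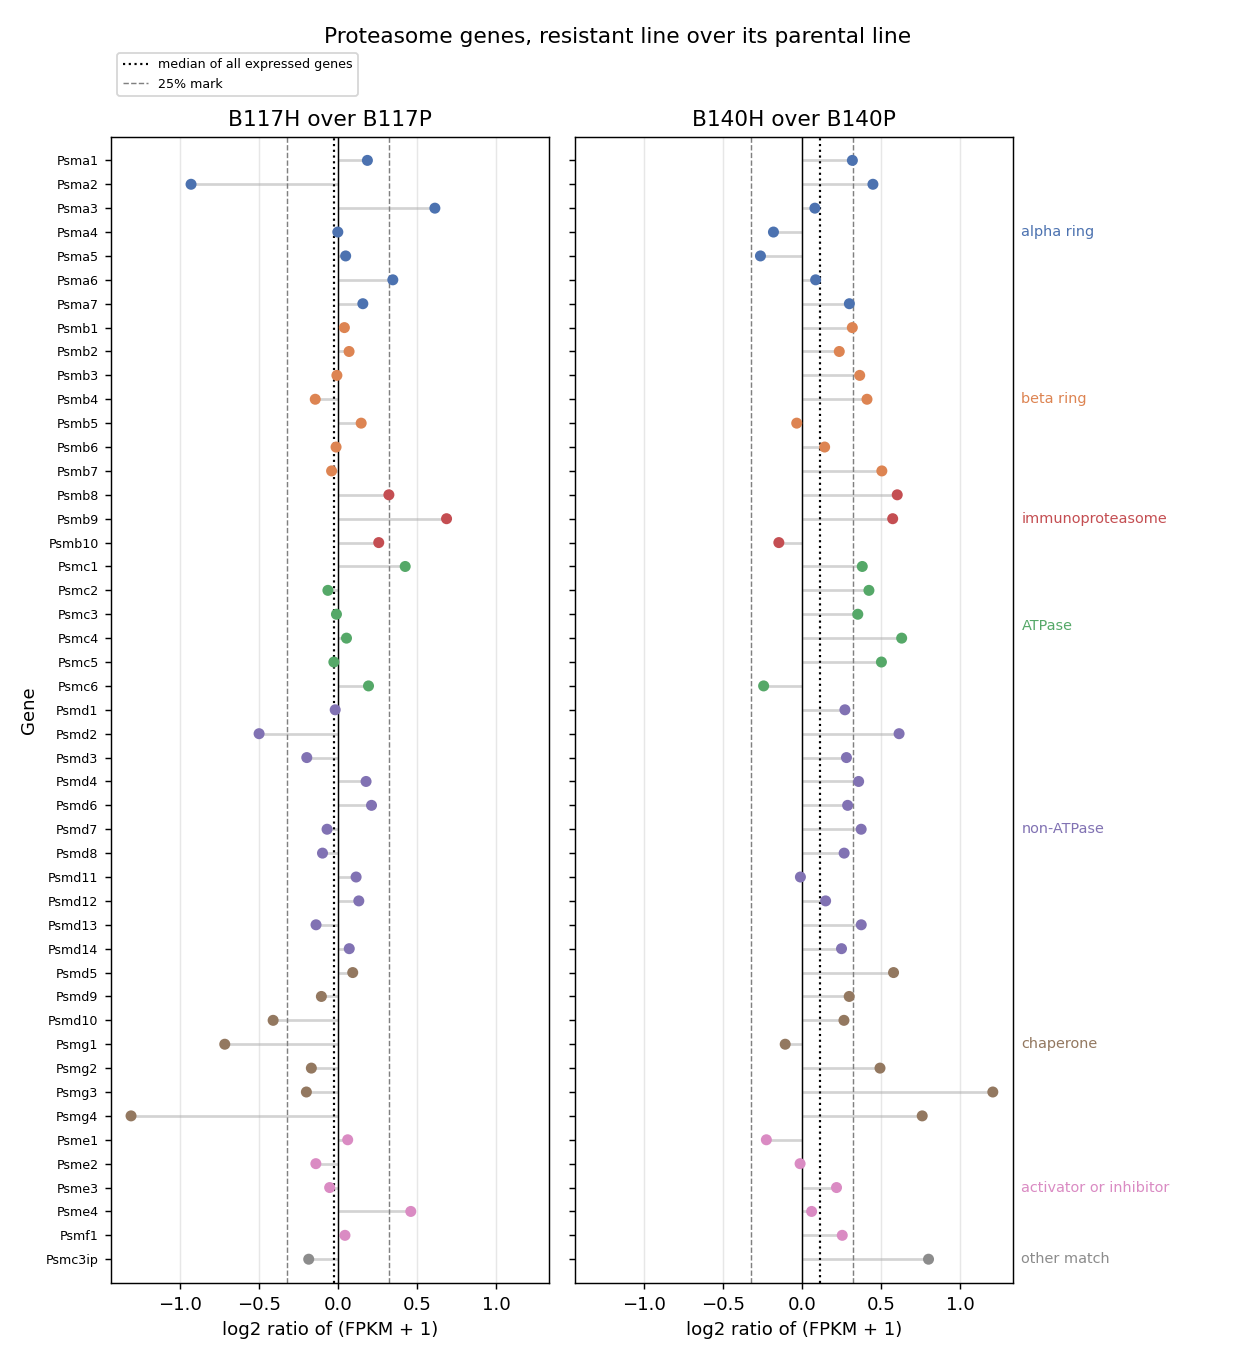
Log2 ratio of (FPKM + 1) in the resistant line over its parental line for each of the 47 genes, with B117H over B117P at left and B140H over B140P at right. Dashed lines show the 25% mark and the dotted line the median of all expressed genes. In lineage B117 the points spread to both sides of 0, and in lineage B140 most lie to the right of 0.

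Agreement between the lineages was limited. Psmb9 and Psmc1 rose in both resistant lines, 2 of 47 genes (4.26%), where 2.66% of all expressed genes did so. None fell in both (2.23% of all expressed genes). Psma2, Psmd2 and Psmg4 fell in B117H and rose in B140H, 3 of 47 (6.38%), where 6.71% of all expressed genes did, and none moved the opposite way (2.46%). Taking the lineages as replicates, limma with the lineage as a block called 0 of the 47 genes, as it called 0 of the 10066 expressed genes (0%). At an unadjusted p under 0.05 it had 1 proteasome gene, Psmb9, and 2.17% of all expressed genes. Psmb9 had a mean log2 ratio of 0.63 with a standard error of 0.24, higher in 2 of 2 lineages (limma, adjusted p = 0.9995).

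Among the alpha ring genes, which form the gate of the barrel, the spread in lineage B117 was wide. Psma3 was at 213 FPKM in B117H and 139 in B117P, and at 161 in B140H and 153 in B140P. Psma6 was at 253 FPKM in B117H and 199 in B117P, and at 224 in B140H and 211 in B140P. Psma2 went the other way in lineage B117, with 110 FPKM in B117H and 211 in B117P, and was at 230 in B140H and 169 in B140P. These 3 were the only alpha ring genes past the 25% mark in lineage B117, with log2 ratios of 0.61, 0.35 and -0.93. In lineage B140, 1 of the 7 rose, Psma2, with a log2 ratio of 0.45, and 0 fell. Of all expressed genes, 25.8% rose and 12.1% fell there. Psma4 was at 132 FPKM in B117H and 132 in B117P, and at 151 in B140H and 171 in B140P. Psma5 was at 131 FPKM in B117H and 127 in B117P, and at 122 in B140H and 147 in B140P. Both were lower in B140H without passing the 25% mark. Psma1 and Psma7 lay between 153 and 265 FPKM in all lines and passed it in neither lineage.

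The 7 constitutive beta ring genes were nearly level in lineage B117, where log2 ratios ran from -0.15 to 0.14 and none rose or fell. Of all expressed genes, 13.8% rose and 20.4% fell in B117H, and 25.8% rose and 12.1% fell in B140H. In lineage B140, 3 of 7 rose, namely Psmb3, Psmb4 and Psmb7, with log2 ratios of 0.36, 0.41 and 0.50. Psmb1 and Psmb2, which like Psmb3 and Psmb4 have no cutting site, had 0.32 and 0.23. Psmb7, which encodes the subunit with trypsin-like activity, was at 209 FPKM in B117H and 215 in B117P, and at 248 in B140H and 175 in B140P. Psmb5, which encodes the chymotrypsin-like subunit that bortezomib binds, was at 253 FPKM in B117H and 229 in B117P, and at 191 in B140H and 195 in B140P. Psmb6, which encodes the caspase-like subunit, was at 155 FPKM in B117H and 157 in B117P, and at 55.9 in B140H and 50.5 in B140P. The catalytic subunits therefore differed among themselves in lineage B140: Psmb7 rose and Psmb5 and Psmb6 stayed within the 25% mark. GENCODE M21 names 1 pseudogene after Psmb5, 2 after Psmb6 and 1 after Psmb7, and how reads were divided between these copies was not tested.

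Of the immunoproteasome genes, Psmb9 rose in both resistant lines, and Psmb8 rose in B140H and came just short of the 25% mark in B117H. Psmb8 was at 370 FPKM in B117H and 296 in B117P, and at 468 in B140H and 308 in B140P. It was the highest of the 47 genes in every library. Its log2 ratios were 0.32 for B117H over B117P and 0.60 for B140H over B140P. Psmb9 was at 189 FPKM in B117H and 116.9 in B117P, and at 218 in B140H and 146 in B140P. On the estimated fragments its fold was 1.61 in lineage B117, with an exact Clopper-Pearson 95% interval of 1.52 to 1.71. In lineage B140 its fold was 1.49, with an interval of 1.41 to 1.57. The intervals cover counting error only. Psmb10, on another chromosome, was at 54.5 FPKM in B117H and 45.5 in B117P, and at 35.8 in B140H and 39.8 in B140P, so it did not pass the 25% mark in either lineage.

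Each immunoproteasome gene was then set against the constitutive gene whose product it replaces. Psmb8 over Psmb5 gave a ratio of FPKM of 1.46 in B117H and 1.29 in B117P, and of 2.45 in B140H and 1.58 in B140P. Psmb9 over Psmb6 gave 1.22 in B117H and 0.746 in B117P, and 3.90 in B140H and 2.89 in B140P. Both ratios were higher in each resistant line, by 1.13-fold and 1.63-fold in lineage B117 and by 1.56-fold and 1.35-fold in lineage B140. Psmb10 over Psmb7 gave 0.261 in B117H and 0.212 in B117P, and 0.144 in B140H and 0.228 in B140P. That ratio was 1.23-fold higher in B117H but fell to 0.634 of the parental ratio in B140H. The mean log2 change over the 3 ratios was 0.39 for B117 and 0.14 for B140. These ratios are taken within a library and do not depend on the scaling between libraries.

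**Figure D3:**
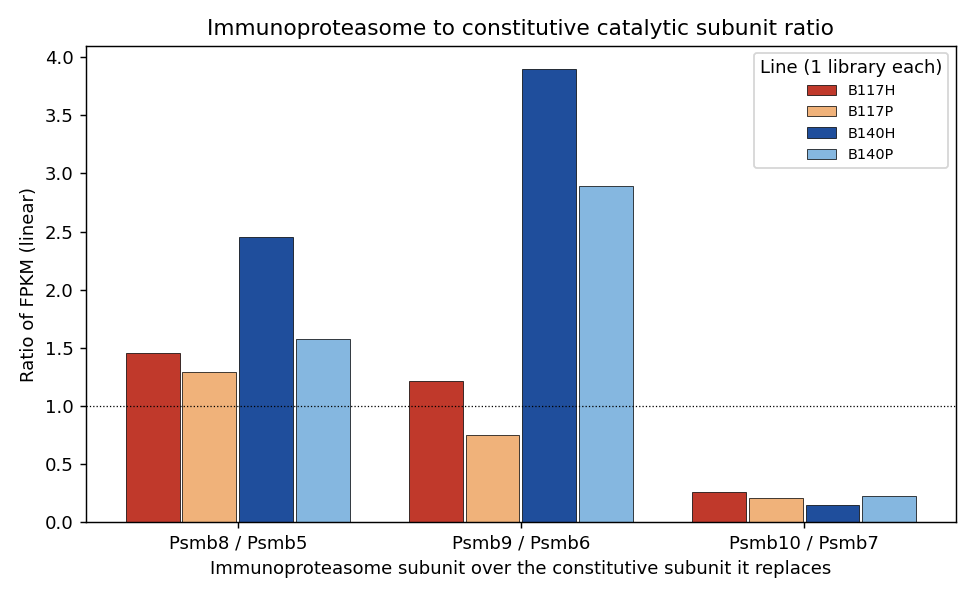
Ratio of the FPKM of each immunoproteasome gene to that of the constitutive gene it replaces, 1 bar per line, on a linear axis from 0, with a dotted line at 1. The Psmb8 to Psmb5 and Psmb9 to Psmb6 ratios are higher in each resistant line than in its parental line, and the Psmb10 to Psmb7 ratio stays under 0.3 in all lines.

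Psmb9 lies at chr17:34319044-34324275 and Psmb8 at chr17:34335140-34338399 in the mm9 build, in the MHC class II region, beside Tap1 and Tap2, which encode the transporter that carries proteasome products into the endoplasmic reticulum. The listed spans of Psmb9 and Tap1 are 225 bases apart. Both Tap genes rose in both resistant lines. Tap1 was at 68.0 FPKM in B117H and 44.8 in B117P, and at 77.8 in B140H and 53.7 in B140P. Tap2 was at 166 FPKM in B117H and 93.9 in B117P, and at 147 in B140H and 106 in B140P. H2-Ob, a chain of the class II peptide-loading regulator H2-O and the next expressed gene beyond Tap2, also rose, with 15.6 FPKM in B117H and 6.13 in B117P, and 17.1 in B140H and 8.93 in B140P. Of the 14 expressed genes within 200 kb of Psmb8, 4 rose in both lines, as 2.66% of all expressed genes did, and these were Psmb9, Tap1, Tap2 and H2-Ob. The stretch was chosen after the values of Psmb8 and Psmb9 were seen, and Psmb9 is itself among the 4. In B140H the rise was not limited to this run. Ring1, H2-Ke6, Slc39a7 and Rxrb also rose there, with log2 ratios of 0.40, 0.33, 0.62 and 0.32, where 25.8% of all expressed genes rose. In lineage B117 these genes had -0.12, 0.11, -0.49 and -0.20. On the other side of Psmb9, H2-DMa, which helps load class II molecules, fell in both lines, with log2 ratios of -0.82 for B117 and -0.42 for B140. Its levels were close to the filter of 1 FPKM, with 1.11 FPKM in B117H and 2.74 in B117P, and 2.15 in B140H and 3.20 in B140P. H2-Ob and H2-DMa were chosen after their values were seen.

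**Figure D4:**
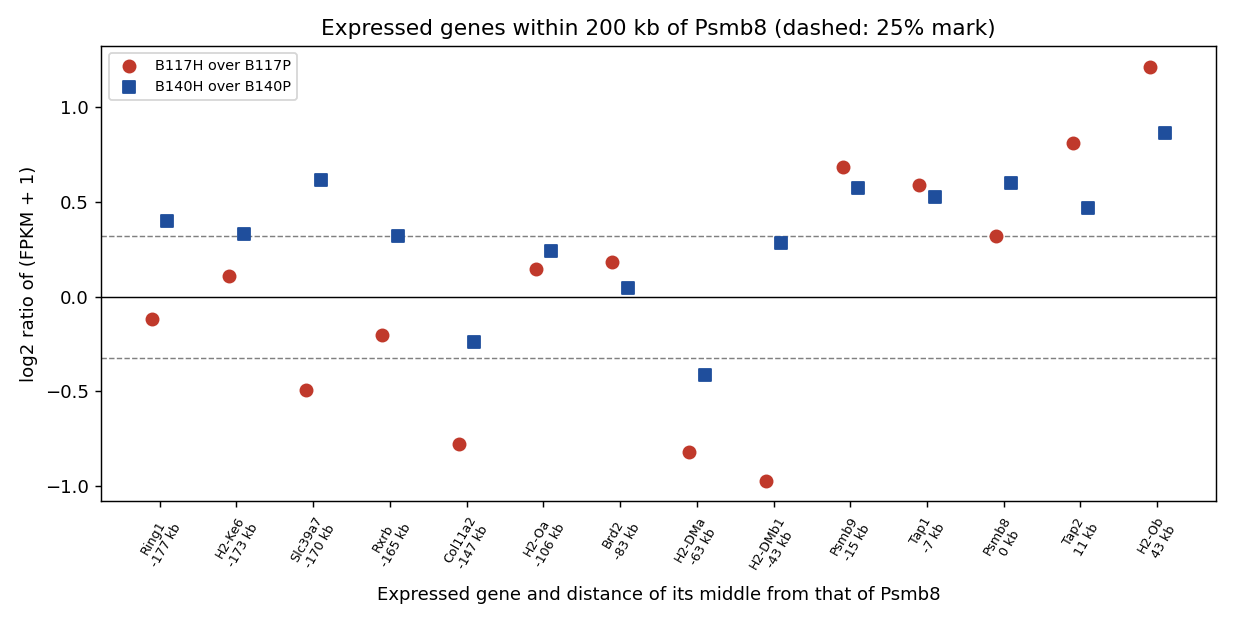
Log2 ratio of (FPKM + 1) in the resistant line over its parental line for the 14 expressed genes within 200 kb of Psmb8, in chromosomal order, with circles for lineage B117 and squares for lineage B140. The run from Psmb9 to H2-Ob lies above 0 in both lineages, with Psmb8 at 0.32 in lineage B117, just under the dashed line of the 25% mark. In lineage B140, Ring1, H2-Ke6, Slc39a7 and Rxrb also reach that line.

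The peptide-loading list, which holds both Tap genes, was not uniformly higher. Of its 12 genes, 2 rose and 1 fell in B117H, and 6 rose and 0 fell in B140H, with medians of 0.01 and 0.25. Over all expressed genes 13.8% rose and 20.4% fell in B117H, and 25.8% rose and 12.1% fell in B140H, and these shares apply to every list named here. B2m, the light chain of class I molecules, was at 1207 FPKM in B117H and 1262 in B117P, and at 1272 in B140H and 1184 in B140P. Interferon is the classical inducer of Psmb8 to Psmb10, and of 9 expressed interferon response genes 2 rose and 4 fell in B117H, while 3 rose and 0 fell in B140H. Isg15, a ubiquitin-like protein, was at 0.773 FPKM in B117H and 4.59 in B117P, and at 0.0658 in B140H and 0.243 in B140P. It was thus under 1 FPKM in every line but B117P. Of the 4 genes that fell in B117H, Irf7 was also close to the filter, at 1.46 FPKM in B117H and 3.32 in B117P. Irf8 and Irf9 were higher in both B117 lines. Irf8, a transcription factor of myeloid and B cells, was at 57.2 FPKM in B117H and 119 in B117P, and at 200 in B140H and 88.5 in B140P. Ifi47, an interferon-inducible GTPase named here after its values were seen, rose in both lines, with log2 ratios of 0.42 for B117 and 0.56 for B140. Its listed span overlaps other listed genes, Tgtp2 among them. The part of interferon signalling in the rise of Psmb9 was not tested.

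The bases before the start sites of 5 catalytic genes, all but Psmb7, are shown because these genes are exchanged for each other and moved differently. Each run is the 250 bases before the start, written along the gene's strand, from RefSeq on GRCm38.p6. Capitals mark matches to TGACNNNGC, the core of the antioxidant response element through which the factor encoded by Nfe2l1 acts on proteasome genes, or to CCAAT, on either strand. They lie at chr17:34187331-34187580 on the minus strand for Psmb9, chr8:105938393-105938642 on the minus strand for Psmb10, chr17:34197945-34198194 on the plus strand for Psmb8, chr14:54617996-54618245 on the minus strand for Psmb5 and chr11:70525107-70525356 on the plus strand for Psmb6.
Psmb9: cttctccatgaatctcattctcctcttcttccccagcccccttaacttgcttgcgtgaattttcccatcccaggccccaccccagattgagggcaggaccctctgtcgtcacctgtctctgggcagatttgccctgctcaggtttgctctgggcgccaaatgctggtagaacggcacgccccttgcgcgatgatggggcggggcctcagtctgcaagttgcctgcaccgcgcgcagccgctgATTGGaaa
Psmb8: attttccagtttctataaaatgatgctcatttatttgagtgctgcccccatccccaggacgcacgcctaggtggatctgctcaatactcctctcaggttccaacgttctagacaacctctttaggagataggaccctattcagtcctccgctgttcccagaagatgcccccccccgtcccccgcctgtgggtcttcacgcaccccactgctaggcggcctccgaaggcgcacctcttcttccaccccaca
Psmb10: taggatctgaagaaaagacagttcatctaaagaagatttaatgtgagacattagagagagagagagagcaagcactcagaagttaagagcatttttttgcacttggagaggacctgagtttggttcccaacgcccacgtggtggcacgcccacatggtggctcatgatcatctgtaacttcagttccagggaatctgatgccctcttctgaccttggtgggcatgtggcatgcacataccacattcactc
Psmb5: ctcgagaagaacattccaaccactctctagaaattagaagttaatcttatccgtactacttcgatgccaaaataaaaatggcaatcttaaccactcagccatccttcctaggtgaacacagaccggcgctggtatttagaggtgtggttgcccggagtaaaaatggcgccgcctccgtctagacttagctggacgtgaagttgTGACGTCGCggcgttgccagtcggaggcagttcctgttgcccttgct
Psmb6: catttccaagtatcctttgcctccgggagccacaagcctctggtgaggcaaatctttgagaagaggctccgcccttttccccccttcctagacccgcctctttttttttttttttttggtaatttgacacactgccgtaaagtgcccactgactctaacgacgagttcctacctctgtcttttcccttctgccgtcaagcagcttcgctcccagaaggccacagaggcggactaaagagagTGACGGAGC

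Psmb5 and Psmb6 each held a single TGACNNNGC match, Psmb9 a single CCAAT match on the opposite strand, and Psmb8 and Psmb10 none of either. RefSeq promoters were matched for 41 of the 49 genes, with 44 start sites. TGACNNNGC was found in 5 of these 44 windows (11.4%), those of Psmb5, Psmb6, Psmc6, Psmd9 and Psmd12, and in 10.2% of all 32851 promoter windows. CCAAT was found in 15 of the 44 windows (34.1%), and in 33.8% of all windows. The shares of the proteasome genes were close to those of all promoters. The motifs do not overlap in these 5 windows, and a match says only that the letters are present.

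Regulatory particle genes moved little in B117H and rose more often in B140H. Of the 17, 1 rose and 1 fell in B117H, and 9 rose and 0 fell in B140H, with median log2 ratios of -0.01 and 0.35. The shares of all expressed genes were 13.8% risen and 20.4% fallen in B117H, and 25.8% risen and 12.1% fallen in B140H. Among genes of a mean of 20 FPKM or more, 34.5% rose in B140H. In B140H the ATPase genes, whose products unfold the substrate, rose in 5 of 6 cases. Psmc4 was at 106 FPKM in B117H and 102 in B117P, and at 105 in B140H and 67.3 in B140P. Psmc1 was at 153 FPKM in B117H and 114 in B117P, and at 178 in B140H and 136 in B140P, a rise in both lineages. Psmc2, Psmc3 and Psmc5 rose in B140H, with log2 ratios of 0.42, 0.35 and 0.50, and had -0.07, -0.01 and -0.03 in lineage B117. Psmc6 was the exception in lineage B140, with 81.6 FPKM in B140H and 96.8 in B140P, and was at 50.9 FPKM in B117H and 44.4 in B117P.

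The genes for ubiquitin handling on the regulatory particle differed. Psmd2, a scaffold that docks ubiquitin and shuttle factors, was at 110 FPKM in B117H and 156 in B117P, and at 150 in B140H and 97.9 in B140P. It fell in B117H, with a log2 ratio of -0.50, and rose in B140H, with one of 0.61. Psmd4, a ubiquitin receptor, was at 103 FPKM in B117H and 91.0 in B117P, and at 102 in B140H and 79.8 in B140P, a rise in lineage B140 with a log2 ratio of 0.36. Psmd14, the deubiquitinase that removes the chain from the substrate, was at 95.4 FPKM in B117H and 90.9 in B117P, and at 103 in B140H and 86.5 in B140P, within the 25% mark in both. Of the 11 non-ATPase genes, 4 rose in B140H, where 25.8% of all expressed genes did. Besides Psmd2 and Psmd4 these were Psmd7 and Psmd13, each with a log2 ratio of 0.37. Psmd1, Psmd3, Psmd6, Psmd8, Psmd11 and Psmd12 passed in neither lineage.

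Of the 7 assembly chaperones, 3 fell and 0 rose in B117H, where 20.4% of all expressed genes fell and 13.8% rose. In B140H, 4 rose and 0 fell, where 25.8% of all expressed genes rose and 12.1% fell. The range of the middle 50% of the chaperones' log2 ratios was 0.43 in B117 and 0.39 in B140, against 0.43 in both for all expressed genes. Psmg4, a partner of Psmg3 in building the alpha ring, was at 22.5 FPKM in B117H and 57.3 in B117P, and at 80.5 in B140H and 47.2 in B140P. It was the only one of the 47 genes to fall past 2-fold in B117H, with a log2 ratio of -1.31. Psmg3 was at 27.3 FPKM in B117H and 31.5 in B117P, and at 67.5 in B140H and 28.7 in B140P. It was the only one of the 47 past 2-fold in B140H, with a log2 ratio of 1.21, while its partner had 0.76. On the estimated fragments the fold of Psmg4 in lineage B117 was 0.39, with an exact Clopper-Pearson 95% interval of 0.34 to 0.46.

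The other chaperones for the alpha ring, Psmg1 and Psmg2, also form a dimer. Psmg1 was at 45.4 FPKM in B117H and 75.2 in B117P, and at 45.6 in B140H and 49.2 in B140P. Psmg2 was at 24.6 FPKM in B117H and 27.9 in B117P, and at 44.9 in B140H and 31.7 in B140P. The dimer's genes did not move together, since Psmg1 fell in B117H and Psmg2 did not, and Psmg2 rose in B140H and Psmg1 did not. Among the chaperones of the ATPase ring, Psmd10, also known as gankyrin, was at 11.2 FPKM in B117H and 15.2 in B117P, and at 15.8 in B140H and 13.02 in B140P. Its fold in B117H was 0.74 on the estimated fragments, with an exact Clopper-Pearson 95% interval of 0.63 to 0.85, which spans the mark. Psmd5 was at 32.9 FPKM in B117H and 30.8 in B117P, and at 42.2 in B140H and 27.9 in B140P, with log2 ratios of 0.09 and 0.58. Psmd9 had log2 ratios of -0.11 and 0.30.

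Of the 4 activators and the inhibitor, 1 rose and 0 fell in B117H, and 0 of 5 rose or fell in B140H, where 25.8% of all expressed genes rose and 12.1% fell. With 5 genes these counts say little about the group. Psme1 and Psme2 encode the interferon-inducible cap PA28 that opens the core without ubiquitin. Psme1 was at 148 FPKM in B117H and 141 in B117P, and at 178 in B140H and 208 in B140P. Psme2 was at 144 FPKM in B117H and 159 in B117P, and at 161 in B140H and 163 in B140P. Neither cap gene followed Psmb8 and Psmb9, with log2 ratios of -0.23 and -0.01 in lineage B140. Less the median ratio of the 10 nearest expressed genes on each side, Psme1 was at 0.01 and Psme2 at 0.24 in that lineage. Psmb8 and Psmb9 were then at 0.24 and 0.21, so Psme2 was level with them in lineage B140. In lineage B117 the same measure gave 0.18 for Psme1 and -0.04 for Psme2, against 0.57 for Psmb8 and 0.75 for Psmb9. These differences were not tested. Psme3, the nuclear form of this cap, was at 90.6 FPKM in B117H and 94.1 in B117P, and at 122 in B140H and 104 in B140P. Psme4, the large activator PA200, rose in B117H, with 15.5 FPKM in B117H and 11.03 in B117P, and was at 20.7 in B140H and 19.8 in B140P. Its fold in B117H on the estimated fragments was 1.41, with an exact Clopper-Pearson 95% interval of 1.12 to 1.77, which spans the 25% mark. Psmf1, which encodes an inhibitor of the core, was at 9.84 FPKM in B117H and 9.53 in B117P, and at 11.1 in B140H and 9.16 in B140P.

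Psmc3ip matches the naming rule but is no proteasome subunit: it encodes a partner of meiotic recombinases. It was at 14.5 FPKM in B117H and 16.6 in B117P, and at 22.9 in B140H and 12.7 in B140P, a rise in lineage B140. Its listed span overlaps Mlx, as those of Psma4, Psmb5, Psmd1 and Psme1 each overlap another listed gene. Without these 5 genes, 19 of 42 rose in B140H, where 25.8% of all expressed genes did.

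The genes that changed in lineage B117 lay together on a few chromosomes, and the ratio of each is therefore given beside that of its neighbours, the median over the 10 nearest expressed genes on each side. All 3 chromosome 12 genes rose in B117H, namely Psma3, Psma6 and Psmc1, with neighbour medians of 0.47, 0.55 and 0.48 and a chromosome median of 0.44. Both chromosome 13 genes, Psma2 and Psmg4, fell, with neighbour medians of -0.91 and -0.85 and a chromosome median of -0.44. Both chromosome 16 genes, Psmd2 and Psmg1, fell, with neighbour medians of -0.55 and -0.44 and a chromosome median of -0.47. So 7 of the 10 proteasome genes that rose or fell in lineage B117 lay on these 3 chromosomes, which hold 7 of the 47 proteasome genes. Of all 3441 expressed genes that rose or fell there, 21.4% lay on the same chromosomes, which hold 10.4% of expressed genes. These chromosomes were chosen after the values were seen. The exceptions were Psmb9 on chromosome 17, Psme4 on chromosome 11 and Psmd10 on the X chromosome, whose neighbour medians were -0.06, 0.16 and 0.16.

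In lineage B140 the proteasome genes with negative ratios likewise had lower neighbours in most cases. The neighbour medians were -0.43 for Psma4 on chromosome 9, -0.39 for Psma5 on chromosome 3, -0.34 for Psmb5 and -0.24 for Psme1 on chromosome 14. Psmb10, with a ratio of -0.15, differed from its neighbours, whose median was 0.23. At the other end, Psmg3 on chromosome 5, the largest rise, had a neighbour median of 0.78, the highest around any of the 47 genes. Psmd4 rose although its neighbours had a median of -0.60.

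Across the 47 genes the ratio and the neighbour median had a Pearson correlation of 0.73 for B117 and 0.66 for B140, as a description of genes that share libraries and, in part, neighbours. Over the 9994 expressed genes with neighbours it was 0.45 and 0.39. After the neighbour median was subtracted, 4 proteasome genes were past the 25% mark upwards in B117H (8.51%, against 12.9% of expressed genes) and 2 downwards (4.26%, against 14.6%). Psmb8, Psmb9 and Psmb10 were 3 of those 4, with 0.57, 0.75 and 0.41 above their neighbours, and Psmd4 was the other. In B140H, 14 were past it upwards, namely 13 of the 20 that had risen and Psmd14 (29.8%, against 13.9% of expressed genes) and 1 was lower (2.13%, against 14.2%), which was Psmb10. Psmb8 and Psmb9 were 0.24 and 0.21 above their neighbours in B140H and so were not past the 25% mark there. The median of the 47 genes after subtraction was 0.03 for B117 and 0.24 for B140. Why neighbouring genes moved together was not tested.

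**Figure D5:**
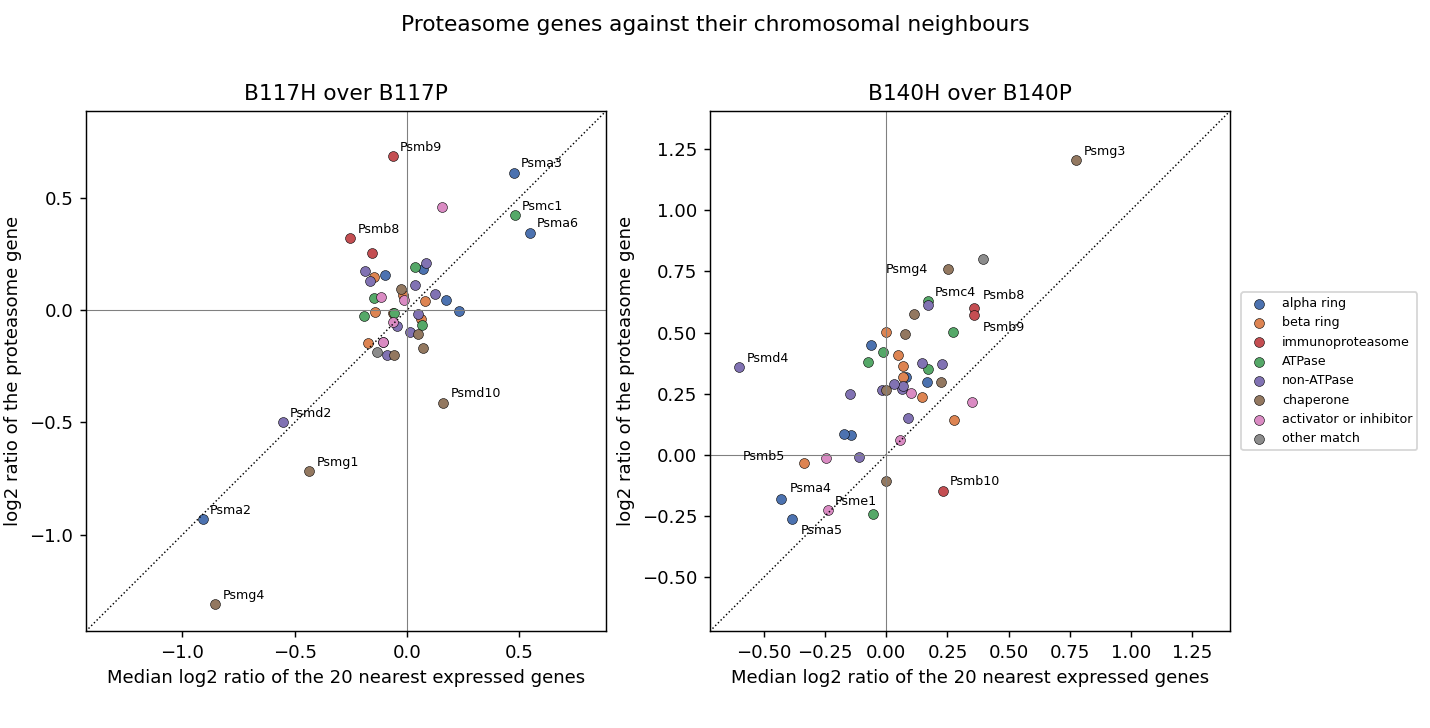
Log2 ratio of each proteasome gene (vertical axis) against the median log2 ratio of its 20 nearest expressed genes (horizontal axis), with lineage B117 at left and lineage B140 at right, coloured by role. The dotted line marks equal values. In lineage B117 the chromosome 12, 13 and 16 genes lie near it except Psmg4 and Psmg1 below it, at -0.46 and -0.28 from it. Psmb8 and Psmb9 lie above it there, and in lineage B140 most points lie above it.

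Partners and regulators of the proteasome were counted in the same way. Against the same shares, 13.8% risen and 20.4% fallen in B117H and 25.8% risen and 12.1% fallen in B140H, the counts were as follows. Of 16 expressed partner genes, 2 rose and 2 fell in B117H, and 5 rose and 0 fell in B140H. Pomp, the chaperone that matures the core and favours the immunoproteasome, was at 191 FPKM in B117H and 214 in B117P, and at 762 in B140H and 500 in B140P. Of 12 genes that act on the transcription of proteasome genes, 1 rose and 6 fell in B117H, and 2 rose and 0 fell in B140H. Nfe2l1, the factor that raises proteasome genes when degradation is blocked, was at 22.8 FPKM in B117H and 29.6 in B117P, and at 23.0 in B140H and 19.8 in B140P. Ddi2, the protease that activates it, was at 19.1 FPKM in B117H and 27.9 in B117P, and at 20.1 in B140H and 17.2 in B140P. Ddi2 was chosen after its values were seen, and its listed span overlaps Rsc1a1.

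Between lineages, levels carry the limit that the files may have been scaled apart, and only large differences are described. Past 2-fold, 1 proteasome gene was higher in B140P than in B117P (5.83% of all expressed genes) and 1 was lower (10.8%). Psmc6 was the higher gene, with a log2 ratio of 1.11, and Psmb6 the lower one, with -1.61. In the resistant lines Psmb6 was again lower in B140H than in B117H, with -1.46, and was the only such gene (9.19% of all expressed genes). Psma2, Psmg3 and Psmg4 were higher in B140H than in B117H past 2-fold (3 of 47, against 9.69% of all expressed genes), with log2 ratios of 1.06, 1.28 and 1.79 and neighbour medians of 1.027, 1.04 and 0.93. The neighbours of Psmb6 on chromosome 11 were also lower in lineage B140, with medians of -1.16 for B140P over B117P and -0.99 for B140H over B117H.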

How the data were processed

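RNA from 4 mouse leukaemia lines was sequenced, with 1 library per line. The authors deposited FPKM values per gene. Per the submitters' processing notes, TopHat2 2.0.4, Cuffdiff and the mm9 build were used. Reads were not realigned. Listed starts were counted from 0, since 6285 symbols then had the same span in the RefSeq table against 434 otherwise, and 1 was added.

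The filter kept genes whose FPKM averaged at least 1 over the libraries, and log2 ratios used a pseudocount of 1. A gene rose at 25% above parity or fell at 20% below it. There is no test within a lineage. Both lineages together were tested on all expressed genes with limma 3.58.1 in R 4.3.3, blocked on lineage, with its trend option and p-values adjusted by Benjamini and Hochberg's method (threshold 0.05), which leaves 1 residual degree of freedom. The block follows the series text, in which each resistant line was derived from its own parental line. Nothing states that the libraries came from separate cultures, so that p reflects the spread between these libraries only.

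Depth was estimated from how far apart low values lie in 649 genes that have 1 transcript, of at least 3 kb. Of these low values, between 71.9% and 84.1% lay within 0.15 of a whole fragment. The unit was fitted to the same values, so this is no independent check, and whole reads were not recovered. Fragments per gene used the median transcript length of GENCODE M21. Exact Clopper-Pearson intervals have a level of 95%.

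The genes and lists were chosen with earlier results of these data known. Named genes are the catalytic subunits, activators, the inhibitor, Psmd2, Psmd4, Psmd14, the Psmg chaperones, genes past 2-fold or past the 25% mark in both lineages, and the 5 highest and lowest per lineage. Of the other lists, genes past 2-fold in a lineage were named, with Nfe2l1, Pomp and Tap1, and some genes of these lists are not reported here. Other genes are described because of their place or role. Spi1 of the 8 myeloid markers and Paaf1 and Hrd1 of the lists were not matched by symbol. Scripts were tested on simulated data. Tables were made in Python 3.11.15 (pandas 2.3.3, numpy 2.4.6), intervals with scipy 1.17.1 and figures with matplotlib 3.10.9. Alternatives were another pseudocount and filter, centring, other folds, genes with no overlap, no block or trend, quantile normalization, leaving out each library and, chosen after seeing the data, subtracting neighbours and leaving out Psmc3ip.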

Additional observations from a re-analysis of the deposited data

Results flagged for a closer look

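Psmg4, Psma2 and Psmd2 fell in B117H and rose in B140H. The log2 change in lineage B140 minus that in lineage B117 was 2.07 for Psmg4, 1.38 for Psma2 and 1.11 for Psmd2. With 1 library per line this difference was not tested. Beside these values, the neighbour medians in lineage B117 were -0.85, -0.91 and -0.55, and in lineage B140 they were 0.25, -0.06 and 0.17.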

How the results depend on the processing

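The lineage B117 median kept within 0.1 of its value under every setting run, and the immunoproteasome ratio changes did so under each pseudocount. A filter or centring cannot alter these ratios, which are taken between fixed genes within a library. Centring the libraries lowered the lineage B140 median to 0.18 and gave 12 higher and 3 lower genes. A 1.5-fold mark left 2 higher and 3 lower genes in B117H and 6 higher in B140H, and a 2-fold mark left 0 higher and 1 lower in B117H and 1 higher in B140H. Subtracting neighbours, an alternative chosen after seeing the data, left 2 lower genes in B117H and made 1 lower in B140H. It reversed Psma6 (-0.20), Psmc1 (-0.0554) and Psmd2 (0.0519) in lineage B117, since their neighbours had moved at least as far. With limma, 0 proteasome genes were called with the lineage block, 0 without that replicate block, and between 0 and 0 when a library was left out without the block, where the lone library of a group is assumed to vary like the others. Over all genes it called 4 with a mean of at least 5 FPKM, 6 without B140P and 0 otherwise. In each of these fits at most 2 proteasome genes had an unadjusted p under 0.05. Counting error alone is wide for the low genes: the interval of Psmd9 in B140H runs from 1.003 to 1.58. With 1 library per line the variation between cultures is unknown.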

Other observations

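The tissue-restricted proteasome genes were at or near 0. Psma8, the alpha subunit of germ cells, was listed at 0 in all 4 libraries. Psmb11, the catalytic subunit of the thymic cortex, was at 0.118 FPKM in B117H and 0.127 in B117P, and at 0.0476 in B140H and 0.0612 in B140P.

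In each lineage most ubiquitin genes did not pass the 25% mark. Of 6 genes for ubiquitin and its activating enzymes, 1 rose and 1 fell in B117H, and 2 rose and 0 fell in B140H. Over all expressed genes 13.8% rose and 20.4% fell in B117H, and 25.8% rose and 12.1% fell in B140H.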
